A study of Mus musculus with 6 samples.

Results

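Integrins are the receptors by which epithelial cells hold the basement membrane. Each is a pair of an alpha and a beta subunit, and 10 subunit genes were examined here: Itga2, Itga3, Itga5, Itga6, Itgav, Itgb1, Itgb4, Itgb5, Itgb6 and Itgb8. They were taken by symbol from a list of subunits known from stratified epithelia, chosen with earlier results of these data known. All 10 were among the 17554 genes of the table. The samples were the corneal epithelial layer of control mice (3 samples), labelled WT, and of Krt14-Cre; Rela f/f mice (3 samples), labelled Rela-/- and called mutant here. All were C57BL/6 mice of 2 months. In the mutant mice a recombinase under the keratin 14 promoter cuts out the floxed stretch of Rela, the gene of an NF-κB subunit. Krt14-Cre is also active in the limbus, the conjunctiva and the meibomian glands, so Rela is deleted beyond the cornea proper. Which alleles or Cre the control mice carried, and whether a sample came from 1 mouse or from several, is not given in the sources used here.

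In a basal corneal cell, Itga6 pairs with Itgb4 to form the core of the hemidesmosome, which ties keratin filaments to laminin. Itga3 pairs with Itgb1 as another laminin receptor, Itga2 with Itgb1 as a collagen receptor and Itga5 with Itgb1 as the classical fibronectin receptor. Itgav pairs with Itgb1, Itgb5, Itgb6 or Itgb8, and these receptors bind vitronectin, fibronectin or latent TGF beta. After wounding, epithelial cells are known to rearrange these receptors as they leave and rejoin the basement membrane.

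The RNA of each sample was sequenced in bulk, so fewer cells of a type and less RNA per cell cannot be told apart. Expected counts summed to 19492942 to 19733834 per sample, and 3 counts, the smallest number taken to show a gene, equalled 0.152 to 0.154 CPM. Intervals and floors cover counting error or the spread between these samples, and PCR copies are not independent molecules. Rela, the deleted gene, had an FPKM of 33.4 to 36.5 in control corneas and of 4.93 to 5.72 in mutant corneas. The samples had the defining genes of corneal epithelium, with Krt12, the cornea-specific keratin, at an FPKM of 18871 to 21194 in control and 17005 to 19245 in mutant corneas. The log2 fold changes of Krt12, Pax6 and Tkt were -0.15, -0.15 and -0.30 (adjusted p = 0.26, 0.19 and 0.065, edgeR). Aldh3a1, of the same list of corneal genes, was lower, at -0.25 (adjusted p = 0.047). The mutant samples had more Krt14, from 150 to 203 in control corneas to 1474 to 2204 in mutant corneas, while Krt5, its usual partner, was at 10806 to 12786 in all 6. The summed FPKM of 8 genes of keratocytes and fibroblasts was 2.58 to 2.93 in the control and 2.05 to 5 in mutant corneas, that of 8 leukocyte genes 21.4 to 25.6 and 28.9 to 30.5, and that of 4 endothelial genes 0.03 to 0.12 and 0.14 to 0.24. In control corneas the sum of the first list was mostly Pdgfra, a fibroblast receptor. Pdgfra fell (2.07 to 2.50 in control and 1.17 to 1.48 in mutant corneas, adjusted p = 0.0050, edgeR). Dcn, which encodes decorin, rose from 0.03 to 0.08 to 0.39 to 1.80 (adjusted p = 0.0051, edgeR). In mutant sample 1 Dcn, at 1.80, was above Pdgfra, at 1.42. Dcn had 3, 2 and 1 counts in control corneas and 66, 34 and 14 in mutant corneas. It thus passed the filter on low counts only through its mutant samples. Of the 8 genes edgeR tested 3, with 1 higher and 1 lower, and DESeq2, which tested more, had 4 higher and 1 lower. Among all genes tested in edgeR 7.82% were higher and 5.42% lower. The sum of the leukocyte genes was mostly Cd68, at 17.3 to 21.8 in control and 22.1 to 24.5 in mutant corneas (adjusted p = 0.22, edgeR). Of the leukocyte genes edgeR tested 2, with 0 higher and 0 lower, and DESeq2 had 1 higher and 0 lower. Lyz2, a gene of myeloid cells, had 0, 0 and 1 counts in control corneas and 24, 13 and 4 in mutant corneas. Adgre1, of the same list, had 2, 1 and 2 counts in control and 1, 2 and 3 in mutant corneas. Csf1r, also listed, had 16, 6 and 8 against 16, 7 and 10. Ptprc, which marks leukocytes, was at most at 0.15, Kera, which marks keratocytes, at 0.07 and Pecam1, which marks endothelium, at 0.23. Mutant sample 1 stood apart from the other mutant samples, at 41.9 on the first principal component against 27.7 and 27.3, and Dcn and Lyz2 were highest in it. The 5 conjunctival genes summed to 1394 to 1618 in the control and 1096 to 1217 in mutant corneas. This sum was mostly Krt13, at 1191 to 1404 in control and 939 to 1061 in mutant corneas (adjusted p = 0.015, edgeR). Krt4 was at 68.9 to 117 and 19.8 to 66.2 (adjusted p = 0.091). Krt19 and Krt7 overlapped between the genotypes, and Muc5ac had at most 1 count in a sample.

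Of the 10 subunits, 6 rose in mutant corneas: Itga3, Itga5, Itga6, Itgb1, Itgb4 and Itgb6. Itga2, Itgav and Itgb5 were not past the threshold, and Itgb8 had too few counts to be tested. The threshold was a Benjamini-Hochberg adjusted p under 0.05 in the quasi-likelihood test of edgeR. Of the 12667 genes tested, 7.82% were higher and 5.42% lower in mutant corneas, 13.2% in all. No subunit fell in that test, and none did at an unadjusted p under 0.05 or with DESeq2 either (0 of 9 in each). The median log2 fold change of the 9 tested subunits was 0.53, beside -0.0028 for all genes tested. Since the subunits were chosen with earlier results of these data known, these figures describe them and are no test of the group. Itga5 passed the filter on low counts only through its mutant samples, so its place in this count was fixed by its difference. In counts scaled by library, every mutant sample of these 6 subunits was above every control sample. That was true of 17.3% of all tested genes, but these 6 were picked by a test on the same counts. The lack of overlap thus adds no support. By the same measure every mutant sample was below every control sample for Itgb5, as for 16.4% of all tested genes.

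**Figure D1:**
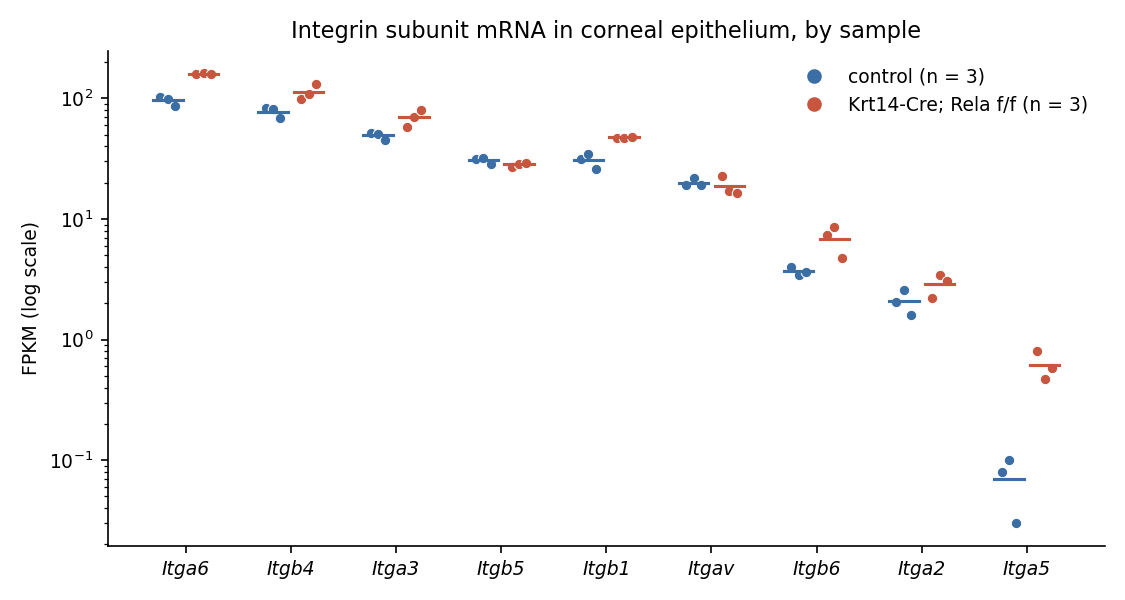
FPKM of 9 integrin subunits on a log axis, in order of their mean in control samples. Each point is a sample, blue for the 3 control and red for the 3 mutant samples, and the bars are means. Itgb8, at 0.00 to 0.02, is left out. Itga6 is highest in both genotypes, and for Itgb5, Itgav and Itga2 the points of the genotypes overlap.

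FPKM corrects for transcript length, so levels can be set beside each other. In the control samples the order was Itga6, Itgb4, Itga3, Itgb5, Itgb1, Itgav, Itgb6, Itga2, Itga5 and Itgb8. The values of Itgb5 and Itgb1 overlapped there, and those of the other neighbours down to Itga5 did not. In the mutant samples Itgb1 stood above Itgb5, and no neighbours down to Itga5 overlapped. The summed FPKM of the 10 subunits was 327, 326 and 280 in control corneas and 424, 447 and 472 in mutant corneas.

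Promoter sequences, from 250 bases before to 50 bases after an annotated start, were read from RefSeq of GRCm38.p6, where 8 of the 10 subunits had an entry and Itga6 and Itgb4 had none. The promoters of Itga5 and Itgb1 are shown as those of subunits that rose, and a promoter of Itga3 and one of Lamb3 for their matches to AP-1 and NF-κB. Capitals mark the motifs searched on both strands, which were TGANTCA for AP-1, GGGCGG for the GC box, TATAAA for the TATA box and the consensus of NF-κB.
Itga5, chr15:103366742-103367041, minus strand: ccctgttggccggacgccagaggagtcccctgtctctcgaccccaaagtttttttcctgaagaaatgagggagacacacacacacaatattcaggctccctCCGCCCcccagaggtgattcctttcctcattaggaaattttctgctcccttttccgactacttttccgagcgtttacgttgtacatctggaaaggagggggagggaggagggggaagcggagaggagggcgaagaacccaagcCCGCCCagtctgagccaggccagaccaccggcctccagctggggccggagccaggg
Itgb1, chr8:128685404-128685703, plus strand: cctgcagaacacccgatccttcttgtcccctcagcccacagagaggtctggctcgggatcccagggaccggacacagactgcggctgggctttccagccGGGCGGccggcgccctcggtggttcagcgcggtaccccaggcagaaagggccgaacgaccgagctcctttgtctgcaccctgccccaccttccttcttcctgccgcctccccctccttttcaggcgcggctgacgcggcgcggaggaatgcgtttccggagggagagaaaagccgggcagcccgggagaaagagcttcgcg
Itga3, chr11:95069149-95069448, minus strand: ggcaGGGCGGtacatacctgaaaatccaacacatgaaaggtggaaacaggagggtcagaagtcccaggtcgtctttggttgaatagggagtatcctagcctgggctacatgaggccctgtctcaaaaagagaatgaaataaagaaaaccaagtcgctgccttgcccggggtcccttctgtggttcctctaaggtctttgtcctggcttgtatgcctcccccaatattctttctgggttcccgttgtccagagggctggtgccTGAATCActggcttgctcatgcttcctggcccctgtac
Lamb3, chr1:193301744-193302043, plus strand: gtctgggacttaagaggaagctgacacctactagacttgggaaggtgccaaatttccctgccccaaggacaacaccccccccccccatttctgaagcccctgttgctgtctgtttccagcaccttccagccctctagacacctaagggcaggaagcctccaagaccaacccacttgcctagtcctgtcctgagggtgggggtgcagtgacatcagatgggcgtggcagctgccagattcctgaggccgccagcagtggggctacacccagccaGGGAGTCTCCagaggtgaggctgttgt

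The NF-κB consensus was in none of the 10 promoter windows of the 8 subunits, and it was in 4.51% of all 32851 promoter windows. The Lamb3 window shown held it from base 24 to base 33 after the start. The AP-1 pattern TGANTCA, in which N is any base, was matched by TGAATCA in the Itga3 window shown, from base 13 to base 19 after the start. That pattern was in 7.81% of all windows. The other window of Itga3 (95076665 to 95076964), which lies upstream of the one shown, did not hold it. The deposited table lists Itga3 on the plus strand, and RefSeq has it on the minus strand. The GC box was in the windows of Itga2, Itga3, Itga5, Itgav, Itgb1 and Itgb5, subunits that rose and subunits that were not past the threshold, and in 35.7% of all windows. Such matches describe letters in a short window and do not show binding.

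Itga6 (gene 16403) is on chromosome 2 (71786886 to 71858427, GRCm38 as for all positions given). Its FPKM was 103, 99.5 and 87.2 in control corneas and 160, 162 and 159 in mutant corneas. The mutant samples were nearly equal and lay well above the control samples. Itga6 had a log2 fold change, mutant over control, of 0.73 (standard error 0.078, adjusted p = 3.9e-04, edgeR's quasi-likelihood test), which is 1.66-fold with a 95% interval of 1.47 to 1.87. It held with every sample left out in turn, from 0.67 to 0.77. In GENCODE transcripts, 5.31% of the 50-base windows of Itga6 also occur in other transcripts, Gm29397 among them.

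Itgb4, the partner of Itga6 in the hemidesmosome, carries the long cytoplasmic tail that binds plectin. Itgb4 (gene 192897, chromosome 11, 115974725 to 116008412) had an FPKM of 83.5, 81.1 and 68.7 in control corneas and of 98.8, 109 and 131 in mutant corneas. All mutant samples were above the control samples, but mutant sample 1 was close to them. Itgb4 had a log2 fold change, mutant over control, of 0.53 (standard error 0.11, adjusted p = 0.011, edgeR), or 1.45-fold (1.22 to 1.71). Without control sample 3 it was 0.46, and the adjusted p was then 0.053. An exon overlap of 7.66% of its bases with B230344G16Rik on the other strand exists in GENCODE, and whether the libraries keep strand is not given in the sources used here.

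The ratio of Itgb4 to Itga6 in FPKM was 0.810, 0.815 and 0.787 in control corneas and 0.619, 0.673 and 0.824 in mutant corneas. These ratios overlapped between the genotypes, and a difference in the proportion of these partners was not shown (exact permutation test, two-sided p = 0.4). With 3 samples against 3, such a test cannot give a p below 0.1.

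Among the other genes of the hemidesmosome, none of 4 passed the threshold in edgeR, which 13.2% of all tested genes passed. At an unadjusted p under 0.05, 1 was higher, and with DESeq2 1 was higher. Col17a1, the transmembrane collagen that joins Itga6 and Itgb4 there, had an FPKM of 622, 698 and 591 in control corneas and of 657, 804 and 901 in mutant corneas. Its log2 fold change was 0.30 (adjusted p = 0.11). Plec, which encodes the linker plectin, was at 49.4 to 54.7 and 56.5 to 61.4, Dst, which encodes the linker BPAG1, at 51.2 to 68.3 and 51.2 to 66.7, and the tetraspanin Cd151 at 61.4 to 67.0 and 61.9 to 63.7. The largest log2 fold change of the list was thus that of Col17a1, below that of Itgb4.

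Itgb1 is the most widely shared beta subunit and the partner of Itga2, Itga3 and Itga5. Itgb1 (gene 16412, chromosome 8, 128685654 to 128733579) had an FPKM of 31.6, 34.3 and 25.8 in control corneas and of 47.3, 47.4 and 47.7 in mutant corneas. As with Itga6, the mutant samples were nearly equal. Itgb1 had a log2 fold change, mutant over control, of 0.63 (standard error 0.095, adjusted p = 0.0024, edgeR), or 1.55-fold (1.34 to 1.80), and it ranged from 0.54 to 0.72 with a sample left out. Its expected counts were not whole in 5 of the 6 samples, by at most 0.35 of a count.

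Itga3 (gene 16400, chromosome 11, 95044475 to 95087397) had an FPKM of 51.9, 50.9 and 45.1 in control corneas and of 58.1, 70.7 and 80.8 in mutant corneas. The genotypes did not overlap, and mutant sample 1 was again the lowest mutant sample. Itga3 had a log2 fold change, mutant over control, of 0.49 (standard error 0.11, adjusted p = 0.019, edgeR), or 1.40-fold (1.18 to 1.67). Its adjusted p was 0.050, 0.069 and 0.086 without control samples 1, 2 and 3 and 0.061 without mutant sample 2, so this call was lost in each of these fits. The log2 fold change of Itga3 was then 0.52, 0.51, 0.43 and 0.47. The ratio of Itga3 to Itgb1 was 1.48 to 1.75 in the control and 1.23 to 1.69 in mutant corneas (exact permutation test, two-sided p = 0.5).

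Itga2, the collagen receptor subunit, was at an FPKM of 2.06, 2.60 and 1.59 in control corneas and of 2.21, 3.45 and 3.04 in mutant corneas. Mutant sample 1 lay among the control samples. The log2 fold change of Itga2 (gene 16398, chromosome 13, 114833082 to 114932041) was 0.48 with a 95% interval of 0.030 to 0.93 and an adjusted p of 0.15 in edgeR. Without mutant sample 1 it was 0.63, with an adjusted p of 0.042.

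Itga5 showed the largest change and the lowest level of the subunits that were tested. Itga5 (gene 16402, chromosome 15, 103344286 to 103366791) had 7, 9 and 3 counts in control corneas and 70, 41 and 51 in mutant corneas, or an FPKM of 0.08, 0.10 and 0.03 against 0.81, 0.47 and 0.58. Control sample 3 was at the floor of 3 counts, and no mutant sample came near the control samples. Itga5 had a log2 fold change, mutant over control, of 3.06 (standard error 0.38, adjusted p = 8.6e-04, edgeR), or 8.37-fold with an interval of 4.63 to 15.1. Even so, Itga5 made up 0.185% to 0.333% of the alpha subunit FPKM of a mutant sample. It was the only subunit past the thresholds of the study's methods, no more than 0.001 for the adjusted p and at least a 2-fold change, which 1.37% of the tested genes passed. Itga5 missed the first of these in each of the 6 fits that left out a sample (adjusted p 0.0013 to 0.0059), and without mutant sample 3 Itgb6 passed both instead (log2 fold change 1.12, adjusted p = 3.1e-04). Of the genes of keratocytes and fibroblasts, Dcn was at 0.03 to 0.08 in control corneas and at 1.80, 0.96 and 0.39 in mutant corneas. Lum, which encodes lumican, was at 0.00 to 0.02 and at 0.57, 0.25 and 0.00. Kera and Pdgfra, of the same list, did not rise. Kera was at 0.03 to 0.07 in control and 0.00 to 0.05 in mutant corneas, and Pdgfra at 2.07 to 2.50 and 1.17 to 1.48. The part of stromal RNA in the change of Itga5 was not tested.

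**Figure D2:**
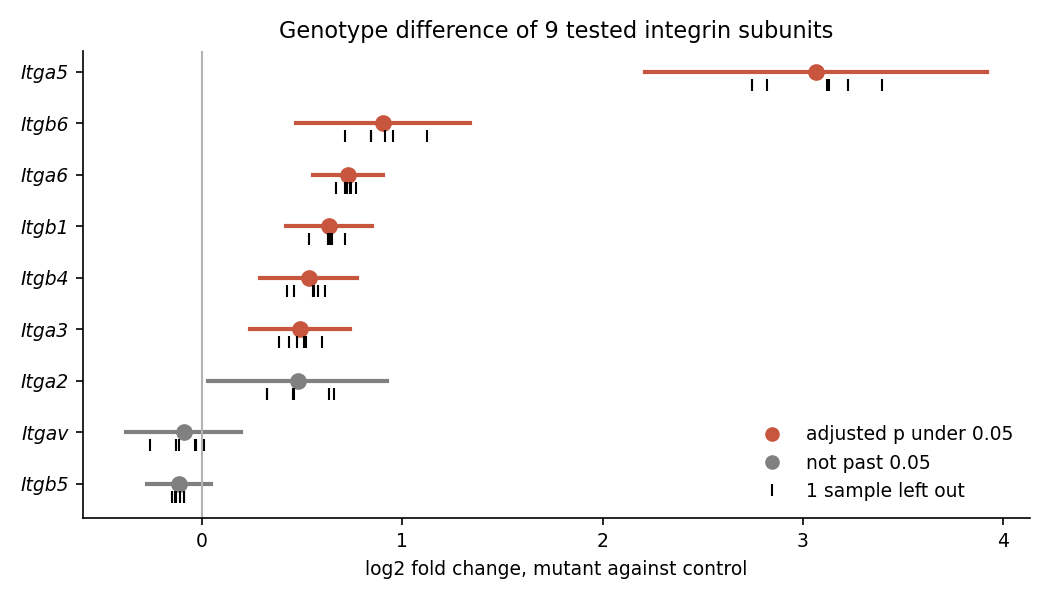
Log2 fold change of the 9 tested subunits, mutant against control, with 95% intervals from edgeR. Red marks an adjusted p under 0.05, grey the others, and the black ticks below each point are the values with 1 sample left out. The intervals of Itgav and Itgb5 cover 0, and that of Itga5 lies apart at 2.21 to 3.92.

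Itgav is the alpha subunit shared by the receptors for vitronectin and latent TGF beta. Itgav (gene 16410, chromosome 2, 83720978 to 83806917) had an FPKM of 19.1, 21.9 and 19.1 in control corneas and of 22.8, 17.2 and 16.3 in mutant corneas. Mutant sample 1 was the highest of all 6 and the other mutant samples the lowest. Itgav had a log2 fold change, mutant over control, of -0.09, with a 95% interval of -0.38 to 0.20 (adjusted p = 0.69, edgeR). Its exons overlap those of Gm13684 on the other strand over 5.9% of their bases in GENCODE.

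Itgb5, a beta partner of Itgav, was at an FPKM of 31.3, 32.1 and 28.6 in control corneas and of 27.0, 28.8 and 29.2 in mutant corneas. The genotypes overlapped in FPKM and not in counts scaled by library. The log2 fold change of Itgb5 (gene 16419, chromosome 16, 33829665 to 33949338) was -0.12 with an interval of -0.28 to 0.046 (adjusted p = 0.33, edgeR), so a fall of more than 0.28 or a rise of more than 0.046 lay outside the interval. In GENCODE, 7.25% of its 50-base windows are shared with Gm38317.

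Itgb6 encodes the epithelial partner of Itgav that activates latent TGF beta. Itgb6 (gene 16420, chromosome 2, 60596048 to 60722603) had an FPKM of 3.98, 3.41 and 3.67 in control corneas and of 7.41, 8.54 and 4.72 in mutant corneas. Mutant sample 3 was the lowest mutant sample, and still above each control sample. Itgb6 had a log2 fold change, mutant over control, of 0.90 (standard error 0.19, adjusted p = 0.014, edgeR), or 1.87-fold (1.38 to 2.53). The adjusted p was 0.080 without control sample 2 and 0.057 without control sample 3. Relative to Itgb5, Itgb6 was at 0.11 to 0.13 in the control and at 0.16 to 0.30 in mutant corneas, with no overlap (exact permutation test, two-sided p = 0.1, which no split of 6 samples can undercut).

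Itgb8 (gene 320910, chromosome 12, 119151322 to 119238276), a further partner of Itgav, had 0, 1 and 0 counts in either genotype. It was not detectable at this depth, where 3 counts would have shown it.

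As shares of the summed alpha subunit FPKM, Itga6 was at 56.9% to 58.5% in the control and 61.1% to 65.5% in mutant corneas, and Itgav at 10.8% to 12.5% and 6.29% to 9.38%. Among the beta subunits, Itgb5 was at 20.8% to 22.6% and 13.8% to 14.9%, whereas Itgb4 was at 53.7% to 55.5% and 54.8% to 61.5%. The summed alpha FPKM was 153 to 176 in control and 243 to 259 in mutant corneas, and the summed beta FPKM 127 to 151 and 180 to 212. Itgav and Itgb5 themselves were not past the threshold (adjusted p = 0.69 and 0.33, edgeR), so their smaller shares are not read as a fall. All these shares describe mRNA and not assembled receptors.

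**Figure D3:**
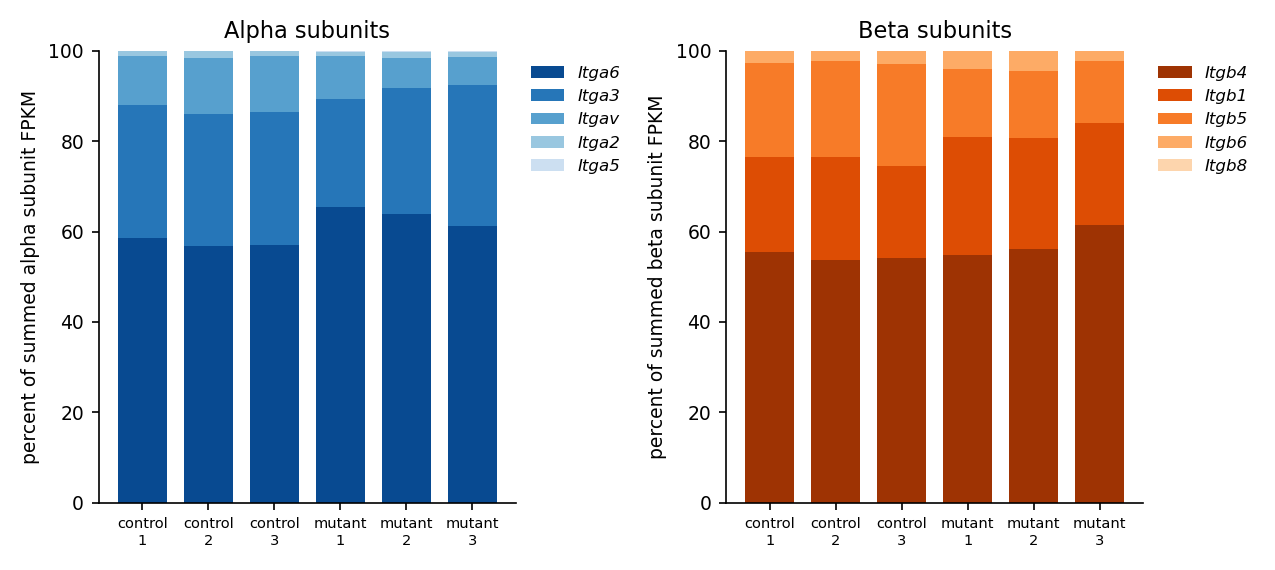
Share of each subunit in the summed FPKM of the 5 alpha subunits (left, blue) and the 5 beta subunits (right, orange), in percent, for each of the 6 samples. In the mutant samples the band of Itga6 is wider and those of Itgav and Itgb5 are narrower than in control corneas. The sums that the shares are taken of are larger in the mutant samples.

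The ligands of these receptors were described from lists set by known role, chosen with earlier results of these data known. Of 10 laminin chains, 7 were tested and 2 rose, Lama3 and Lamb3, where 7.82% of all tested genes were higher and 5.42% lower. None fell in edgeR at the adjusted threshold, whereas 3 were lower at an unadjusted p under 0.05 and 2 were lower with DESeq2. With DESeq2, 1836 of 14117 genes were past the threshold in either direction, and the share of all genes at the unadjusted p is not given here. Lama3 and Lamb3 are chains of the laminin of epithelial anchoring, the main ligand of the Itga6 and Itga3 receptors. Lamb3 had an FPKM of 13.96, 13.65 and 11.93 in control corneas and of 28.7, 31.6 and 33.1 in mutant corneas. It was differentially expressed by the study's thresholds, at a log2 fold change of 1.23 (adjusted p = 3.0e-05, edgeR) that was at least 1.18 when a sample was left out. Lama3 was at 50.7, 49.1 and 42.3 and at 61.0, 73.6 and 64.4, with a log2 fold change of 0.40 and an adjusted p of 0.030. Without control sample 1, 2 or 3 or mutant sample 2 that p was 0.061, 0.081, 0.12 and 0.10. Lama5, Lamb1 and Lamb2, chains of other laminins, were at -0.28, -0.38 and -0.24 on the log2 fold change scale (adjusted p = 0.054, 0.050 and 0.095, edgeR). That of Lamc1 was 0.25 (adjusted p = 0.24).

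**Figure D4:**
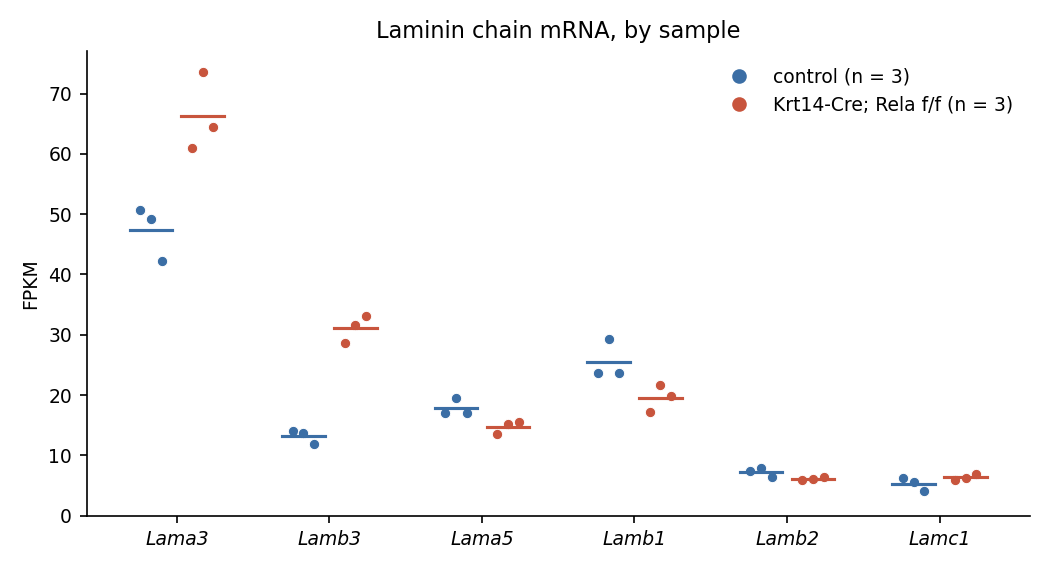
FPKM of 6 laminin chains in the 3 control (blue) and 3 mutant (red) samples, with means as bars. Lama3 and Lamb3 are higher in each mutant sample than in each control sample, while Lama5, Lamb1 and Lamb2 are lower in each.

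Of 10 collagen chains, 4 were tested in edgeR, with 1 higher and 1 lower, beside 7.82% and 5.42% of all tested genes. DESeq2, which tested more of the chains, had 3 higher and 1 lower. The fibrillar collagens of stroma were too low to be tested in edgeR. Col1a1 had 1, 1 and 2 counts in control corneas and 23, 23 and 6 in mutant corneas, and Col3a1 had 1, 0 and 0 against 32, 15 and 6. Col7a1, the collagen of anchoring fibrils, rose with a log2 fold change of 0.38 (FPKM 9.21 to 10.3 against 10.95 to 14.01, adjusted p = 0.026, edgeR), and Col4a5, a basement membrane collagen, fell by 0.46 on the log2 scale (FPKM 4.07 to 5.33 against 3.33 to 3.64, adjusted p = 0.019). The call of Col7a1 was lost without any 1 sample other than mutant sample 1 and with limma, and that of Col4a5 without control sample 1 or 2 and with limma. Of 10 other ligands, mostly proteins with the motif RGD that the Itgav and Itga5 receptors read, 7 were tested and Tnc rose. Tnc, which encodes the wound matrix protein tenascin C, was at 0.02 to 0.04 in control corneas and at 1.15, 0.36 and 0.23 in mutant corneas, and its log2 fold change was 4.25 (adjusted p = 0.0052, lost with at least 10 counts required in every sample, where it was not tested, and with limma on log2(FPKM + 1)). With 4, 3 and 4 counts in control corneas and 144, 44 and 28 in mutant corneas, Tnc passed the filter only through the samples in which it was high. Its mutant samples stood in the same order as those of Dcn, and the part of stromal RNA in this was not tested. Fn1, which encodes fibronectin, the ligand of the Itga5 receptor, was at 59.2, 81.5 and 54.0 in control corneas and at 29.4, 59.3 and 50.7 in mutant corneas (log2 fold change -0.48, adjusted p = 0.21). Tgfb1, whose latent form the Itgb6 receptor binds, was at 18.7, 14.9 and 13.3 and at 14.8, 20.8 and 31.0 (log2 fold change 0.50, adjusted p = 0.18). For both genes the genotypes overlapped.

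Inside the cell, integrin tails are bound by adaptors, switches and inhibitors, of which 24 genes were listed and 21 tested. Of these, 1 rose and 1 fell. Actn1, which encodes the actin cross-linker alpha-actinin 1, rose by 2.67 on the log2 scale from an FPKM of 0.31 to 0.54 to 1.25 to 3.79 (adjusted p = 0.0022, edgeR). It remained low beside Actn4, its close relative, which was at 1189 to 1352 in all 6 samples. Tns3, which encodes tensin 3, fell by 0.50 (adjusted p = 0.022), and without control sample 2 or 3 or mutant sample 2 it was not past the threshold. Tln1, which encodes talin 1, the protein that switches beta tails on, was at a log2 fold change of 0.20 (adjusted p = 0.087), Fermt1, which encodes kindlin 1, of 0.24 (adjusted p = 0.10), Vcl, which encodes vinculin, of 0.26 (adjusted p = 0.091) and Ptk2, which encodes focal adhesion kinase, of 0.21 (adjusted p = 0.14). Of 6 tetraspanins, which gather integrins in the membrane, Cd81 rose from an FPKM of 23.0 to 29.0 to 39.4 to 43.2 (adjusted p = 0.0017) and Cd82 fell from 202 to 221 to 144 to 154 (adjusted p = 0.0024). Over all these partner lists 6 of 48 tested genes rose and 3 fell, beside 7.82% and 5.42% of all tested genes, with a median log2 fold change of 0.17. Nothing particular to these lists is read from these counts. The number past the threshold, 9, was 5 without control sample 2, 20 without mutant sample 1, 16 with DESeq2 and 14 without the filter on low counts.

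**Figure D5:**
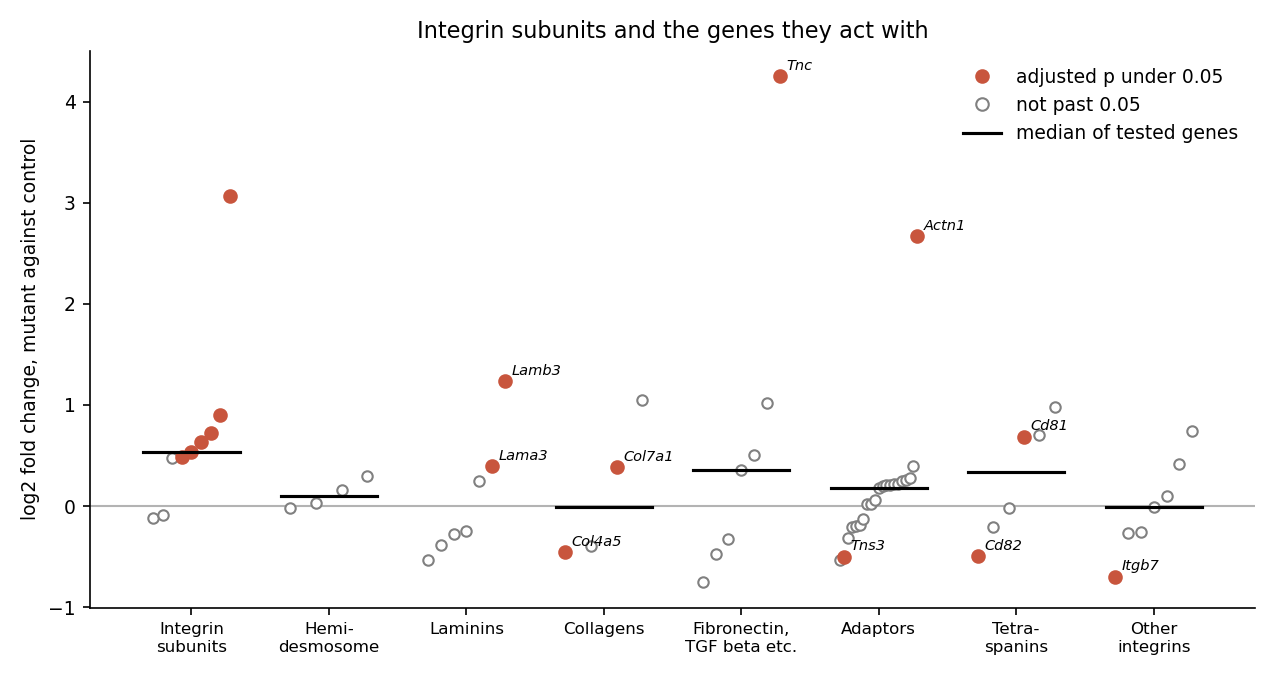
Log2 fold change of the tested genes of each list, mutant against control. Each point is a gene, red where the adjusted p was under 0.05 in edgeR, and the black bars are medians over the tested genes of a list. The bar of the integrin subunits lies at 0.53 and that of the adaptors at 0.18, and the laminins, which have no bar, are shown by single genes, Lamb3 at 1.23 and Lama3 at 0.40 among them.

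Of 18 integrin genes outside the 10, 17 were in the table and 7 were tested. Itgb7, a subunit known from lymphocytes, fell by 0.70 on the log2 scale (FPKM 18.3 to 22.7 against 12.1 to 12.8, adjusted p = 0.0019, edgeR), and the other 6 were not past the threshold. The median log2 fold change of all 7 was -0.0098. Among all tested genes 7.82% were higher and 5.42% lower in mutant corneas.

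Genes of basal cells were set beside the subunits, because integrins of the epithelium lie in the basal layer. Of 4 basal genes, Krt14 rose by 3.32 on the log2 scale, Krt15 fell by 0.55 (adjusted p = 0.039, edgeR), and Krt5 and Trp63 had values of -0.07 and 0.04 (adjusted p = 0.59 and 0.82). Trp63 encodes p63, the master factor of the basal layer, and was at an FPKM of 65.7 to 84.4 in the control and 71.2 to 94.8 in mutant corneas. The ratio of Itga6 to Trp63 was 1.18 to 1.36 in the control and 1.67 to 2.24 in mutant corneas, with no overlap (exact permutation test, two-sided p = 0.1). Relative to Krt14, in contrast, Itga6 was at 0.48 to 0.66 in the control and 0.072 to 0.11 in mutant corneas. Whether the number of basal cells changed was not tested.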

How the data were processed

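Total RNA of the corneal epithelial layer of 3 control and 3 mutant samples was measured by bulk RNA-seq. By the study's methods, rRNA was depleted, single-end reads of 50 bases were made on a BGISEQ-500, filtered with SOAPnuke, aligned with Bowtie2 and summarised with RSEM (versions 2.2.5 and 1.2.12 in the submitters' processing notes). The labels name an Illumina kit instead. The authors deposited RSEM expected counts per gene, neither normalized nor pooled. The authors deposited FPKM too, scaled by transcript length and sample total. Gene coordinates match GRCm38, although the processing notes name mm9. The deposited fold changes, p-values and per-genotype means were not used.

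Expected counts were rounded and fitted with edgeR 4.0.16 in R 4.3.3 (TMM, filterByExpr with a minimum count of 10 and total of 15, quasi-likelihood test, genotype as the only factor), with Benjamini-Hochberg adjustment over all genes tested. Standard errors were derived from the F statistic. Ratios were compared by exact permutation, two-sided. P-values measure the spread between these samples. Alternatives were DESeq2 1.42.0, upper-quartile scaling, 2 other filters, limma 3.58.1 on log2 FPKM with 1 or 0.1 added, blocking on replicate number, and leaving out each sample. The subunits, lists and tests were chosen with earlier results of these data known. All subunits were named, and of each list the genes past the threshold, with others of known role named for comparison after their values were seen. Some genes are not reported here, and they are left out of the counts and medians of the lists. The tests were tried on simulated counts. Deviations of same-numbered samples from their group means correlated at 0.019, 0.048 and -0.046, and those of differently numbered samples at -0.077 to 0.064. Pairing by number was thus not shown, and with 3 samples of each genotype these values cannot decide it. No samples of a genotype differed by as little as sampling noise (chi-square per gene 8.60 to 10.4 among control samples, 9.88 between mutant samples 2 and 3, and 19.8 and 27.6 between these and mutant sample 1). Windows of 50 bases, the read length, and exon overlaps were counted in GENCODE M21.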

Additional observations from a re-analysis of the deposited data

How the results depend on the processing

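The rises of Itga6 and Itgb1 at an adjusted p under 0.05 held under each alternative. That of Itga5 held where it was tested, but in the main fit it passed the filter on low counts only through its mutant samples. Itga5 was not tested where 10 counts were required in every sample, as its control samples had 7, 9 and 3. The number of subunits past that threshold, 6, was 5 with that filter, 6 with DESeq2, upper-quartile scaling, no filter, both limma settings and the replicate block, and 3 to 7 with a sample left out, where 3 was without control sample 3 and 7 without mutant sample 1. The number differentially expressed, 1 (Itga5), was 0 under the filter of 10 counts everywhere, 0 in limma with either pseudocount, 0 with the replicate block and 0 to 1 with a sample left out, where the 1 was Itgb6. The log2 fold change of Itga5 was smallest, 0.59, in limma on log2(FPKM + 1), since the pseudocount exceeds its level. Of the partner genes, 9 were past the threshold, against 16 with DESeq2, 14 with no filter and 5 to 20 with a sample left out (5 without control sample 2, 20 without mutant sample 1). The same 9 were among the 16 and among the 20. The replicate block gave 10 partner genes. The log2 fold change of Itgav ran from -0.2611 without mutant sample 1 to 0.0105 without mutant sample 3 (adjusted p = 0.066 and 0.97). The causes of the other shifts were not tested. Over all genes, 173 were differentially expressed, and 36 without control sample 2 to 342 with DESeq2.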

Other observations

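Itgam, the alpha subunit of a leukocyte integrin, was at an FPKM of 63.9 to 67.2 in the control and 51.0 to 94.8 in the mutant samples, higher than Itgb1, while its obligate partner Itgb2 was at 0.02 to 0.13 and Ptprc at 0.01 to 0.15. In GENCODE, 66.3% of the 50-base windows of Itgam also occur in Gm49368, whose exons overlap 68.7% of its exon bases on the same strand, so reads of these genes could not be separated here. Itgb7, the subunit that fell, shares no window with another gene, while Itga4 and Itgae, its partners in leukocytes, were at 0.58 to 0.69 and 0.01 to 0.09.

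As a description over the 6 samples, which form 2 groups and share the genotype difference, the log2 CPM of Itga6 was most like that of Slc39a6 (Pearson's r = 0.999), Ssh1 and Ctsz, and Itgb4, its partner, ranked 739 of 12666 genes (r = 0.911). For Itgb4 the closest were Zfp275, Fastkd3 and Nrgn, and for Itga3 they were Nrgn, Zfp275 and Gtf2h2. By likeness to Itgb1, Itga3 ranked 858 (r = 0.869).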
